A study of Arabidopsis thaliana with 6 samples.

Results

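The 10 genes described here are early response genes of Arabidopsis thaliana that are known for their rapid induction by touch, wounding and other stimuli. They were taken by locus identifier as named genes: the touch genes TCH2, TCH3 and TCH4, the calmodulin-like genes CML37 and CML38, the zinc finger genes ZAT10, ZAT12, SZF1 and SZF2, and the kinase gene MKK9. All 10 were among the 21693 genes of the deposited count table, and all 10 passed the filter on low counts that left 10803 genes for testing. RNA-seq had been made from shoots of 8-day-old seedlings of the phod1 mutant (3 samples) and of the wild type (WT, 3 samples). Both genotypes grew on the same nutrient-rich agar with 1.0% sucrose and 1.1% agar at 23 °C, in days of 16 h light and 8 h dark. Which gene phod1 affects is not in the labels, nor whether it is a single line, how many seedlings were pooled and in what order they were harvested. The study's title concerns SHORT-ROOT, PHOSPHATE1 and phosphate allocation, and the only comparison of the design is phod1 against WT.

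Touch, wounding and many other stimuli raise calcium in the cytosol of plant cells. Calmodulin and calmodulin-like proteins bind that calcium through EF-hand motifs and pass the signal on, and mitogen-activated protein kinase cascades act in parallel. Within a short time transcription factor genes, many of them encoding zinc finger, ERF and WRKY proteins, are induced and then fall back, so that their transcripts are known as markers of recent stimulation. CAMTA factors, which bind calmodulin, recognise a CGCGT core in promoters of such genes, and WRKY factors recognise the W-box with its TTGAC core.

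Levels are given as CPM, the count of a gene relative to the TMM-scaled size of its library, and a change was called at an adjusted p below 0.05 in the quasi-likelihood test of edgeR, with Benjamini-Hochberg adjustment over all 10803 genes. The libraries held 33183463 to 33932995 units of the deposited table in phod1 and 34226295 to 54720319 units in WT, and 1 fragment is worth about 4 units. TMM factors were 1.1 to 1.17 in phod1 and 0.857 to 0.907 in WT, which lowered every gene in phod1 relative to WT. A fall smaller than this difference rests on the scaling, and no fit used library totals alone. A floor of 3 fragments stood at 0.309 to 0.321 CPM in phod1 and 0.256 to 0.404 CPM in WT, a limit set by counting error alone. The labels do not tie the samples to separate cultures, and p-values here reflect the spread among 3 samples a genotype, part of which may be technical. The 5 shoot markers were all present, with a summed level of 20942 to 27009 CPM in phod1 and 47573 to 54384 CPM in WT, and 4 of them (RCA, LHCA1, LHCB3 and PSAD2) were called lower. The 4 root markers summed to 0.428 to 0.979 CPM in phod1 and 0.193 to 0.619 CPM in WT, with EXPA7 at 0 in every library. The part of the lower shoot markers in the results below was not tested, and in whole shoots fewer cells of a type cannot be told apart from less RNA per cell. In 373 of the genes tested (3.45%), 1 library lay at least 8-fold from both other libraries of its genotype, and 44 to 64 such genes were low in each of the 6 libraries. TCH3 (in WT 2), TCH4 (in WT 3) and SZF2 (in phod1 3) were among them, so each is given with and without that library. TCH3 is also given without phod1 3, which lay 4.54-fold below the mean of the other phod1 libraries and so within the 8-fold limit.

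Of the 10 early response genes, 6 fell in phod1 shoots (TCH2, CML37, CML38, ZAT10, ZAT12 and SZF1), none rose and 4 (TCH3, TCH4, SZF2 and MKK9) did not pass. Over all genes tested, 27.7% were called, 13.0% lower and 14.6% higher. At least 2-fold lower and called were 5 members, against 4.59% of all genes tested. The members were chosen with earlier results of these data known, so the contrast with all genes is a description. The log2 fold change was negative in all 10 members, and its median was -1.75, beside a median of 0.014 over all genes. The changes of TCH2 and MKK9 were no larger than the difference in TMM factors between the genotypes. That phod1 lay below WT in TCH2 and MKK9 thus rests on the scaling. In 8 members every phod1 library lay below every WT library, which held for 22.9% of all genes tested, and p was 0.1 for each of those 8 by an exact permutation test (two-sided), the smallest that 3 against 3 libraries allow.

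**Figure D1:**
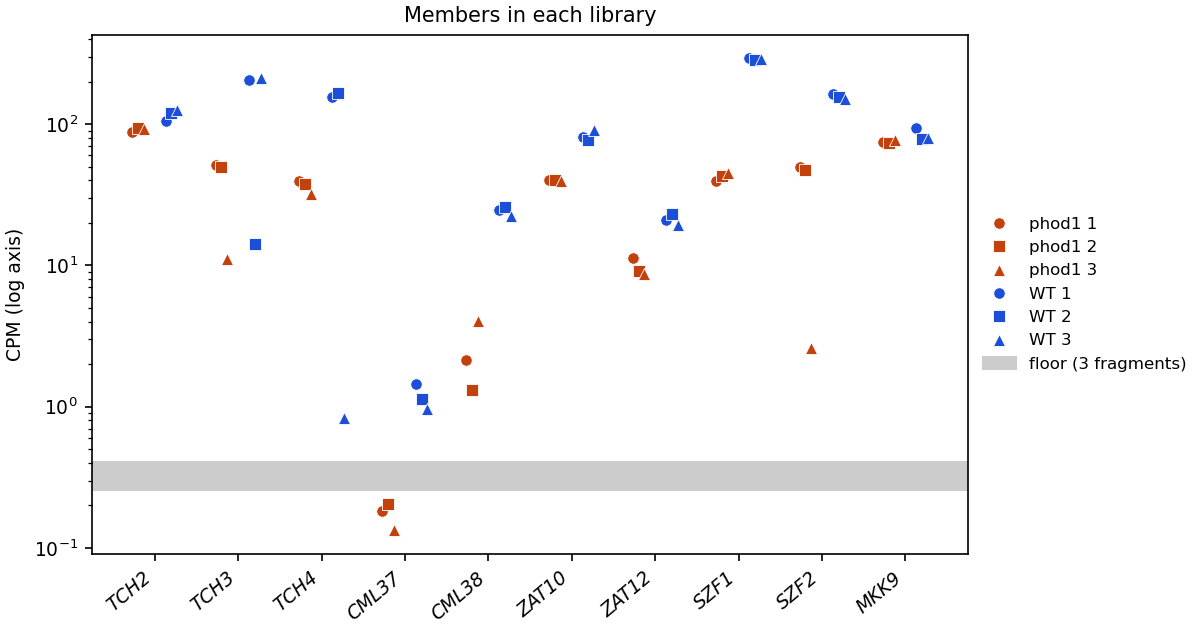
CPM of each member (log axis) in the 3 phod1 libraries (left, orange) and the 3 WT libraries (right, blue), with 1 symbol per replicate number and the floor of 3 fragments as a grey band. SZF1 sits at 39.8 to 45.4 CPM in phod1 and 285 to 292 CPM in WT, while TCH3, TCH4 and SZF2 each have at least 1 library far below the others of its genotype.

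For 4 members whose promoters hold motif cores of the early response close to the gene start, the last 100 bases before that start are shown so that the letters can be read in place. The sequences are from RefSeq, build TAIR10.1, with the gene's strand given, 5′ to 3′. In SZF1 and SZF2 the capitals mark the longest run of letters that both promoters share, and in TCH2 and ZAT12 they mark matches to CGCGT on either strand.
SZF1, chr3:20776120-20776219, plus strand: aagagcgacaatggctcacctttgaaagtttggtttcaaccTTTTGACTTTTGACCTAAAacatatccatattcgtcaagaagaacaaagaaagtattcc
SZF2, chr2:16771897-16771996, plus strand: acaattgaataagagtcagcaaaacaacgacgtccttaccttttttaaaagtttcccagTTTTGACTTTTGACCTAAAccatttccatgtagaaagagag
TCH2, chr5:14999620-14999719, minus strand: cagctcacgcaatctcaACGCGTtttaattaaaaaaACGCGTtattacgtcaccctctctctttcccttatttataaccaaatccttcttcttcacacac
ZAT12, chr5:24102714-24102813, plus strand: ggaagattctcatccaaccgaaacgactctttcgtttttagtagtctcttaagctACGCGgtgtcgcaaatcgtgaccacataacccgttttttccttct

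The run shared by SZF1 and SZF2 is 19 bases long, TTTTGACTTTTGACCTAAA, and holds 2 copies of the W-box core TTGAC in the same direction. It starts 59 bases before the gene start in SZF1 and 41 bases before it in SZF2. The stretch from the first to the second copy, TTGACTTTTGAC, was found on either strand in 29 of 27443 promoters of the same 250 base length (0.106%), and among the members in these 2 alone. This run was looked for after the letters had been seen. Over the 250 bases before the gene start, TTGAC was present on either strand in 6 of the 10 members (TCH4, CML38, ZAT10, ZAT12, SZF1 and SZF2) and in 44.9% of all promoters. CGCGT was present in TCH2 and ZAT12 and in 6.87% of all promoters. In TCH2 it stands in 2 copies of the palindrome ACGCGT, each of which matches on both strands. The G-box CACGTG was present in none of the 10 and in 6.49% of all promoters. A match describes the letters of this window and does not show that a factor binds there.

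Of the 4 calcium sensors, TCH2, CML37 and CML38 fell and TCH3 did not pass. TCH2 (AT5G37770, chromosome 5), also known as CML24, encodes a calmodulin-like protein. It stood at 87.5, 94.4 and 91.7 CPM in phod1, against 104.5, 120.8 and 126.5 CPM in WT. The groups did not overlap, although the highest phod1 library and the lowest WT library were close. TCH2 fell by 0.36 on the log2 scale (SE 0.0976, adjusted p = 0.0412 by edgeR), with means of 91.2 ± 3.46 CPM in phod1 and 117 ± 11.4 CPM in WT (SD, n = 3 each). This fall is no larger than the difference in TMM factors between the genotypes and rests on that scaling. TCH2 held 3351, 3666 and 3431 units in phod1, against 3105, 5660 and 3926 units in WT. With edgeR it passed when WT 1 was left out (adjusted p = 0.0273) but not without phod1 1 (0.123), phod1 2 (0.0859), phod1 3 (0.102), WT 2 (0.108) or WT 3 (0.0991). The neighbouring locus AT5G37760 overlaps TCH2 on the opposite strand and was not analysed here, and whether the counting used strand is not stated in the labels.

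TCH3 (AT2G41100, chromosome 2), also known as CML12, encodes a longer calmodulin-like protein. It stood at 51.7, 49.7 and 11.2 CPM in phod1, against 204.9, 14.1 and 213 CPM in WT. WT 2 and phod1 3 lay far below the other libraries of their genotypes, and the groups overlapped. The log2 fold change of -1.94 did not pass (SE 1.06, adjusted p = 0.239 by edgeR; exact permutation p = 0.3). Without those 2 libraries the means were 50.7 ± 1.45 CPM in phod1 and 209 ± 5.52 CPM in WT (SD, n = 2 each), 4.12-fold lower in phod1, and edgeR then put its log2 fold change at -2.04 (SE 0.0937, adjusted p = 0.00928). In that fit 5.09% of all genes tested were called lower. The 2 libraries were left out after the low values of TCH3 had been seen, so its SE and p there leave out that spread. Without phod1 3 alone (adjusted p = 0.418) or WT 2 alone (0.0651) TCH3 did not pass.

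The genes on either side of TCH3 are a calmodulin-like and a calmodulin gene, of which the first rose and the second did not pass. CML10 (AT2G41090), a calmodulin-like gene that ends 38 bases before TCH3 begins on the same strand, stood at 364.7, 343 and 361 CPM in phod1, against 135, 142 and 129 CPM in WT. It rose by 1.40 on the log2 scale (SE 0.0723, adjusted p = 2.2e-04 by edgeR), and its values did not overlap between the genotypes. CAM2 (AT2G41110), a calmodulin gene on the other side of TCH3, stood at 20.3 to 22.5 CPM in phod1 and 24.7 to 26.7 CPM in WT (log2 fold change -0.30, SE 0.0933, adjusted p = 0.0662). In phod1 3 and WT 2, the libraries in which TCH3 was low, CML10 stood at 361 and 142 CPM and CAM2 at 20.5 and 26.4 CPM, and the cause of the low TCH3 values was not tested. The models AT2G41105 and AT2G09220, overlap TCH3 on the opposite strand and were not analysed here.

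**Figure D2:**
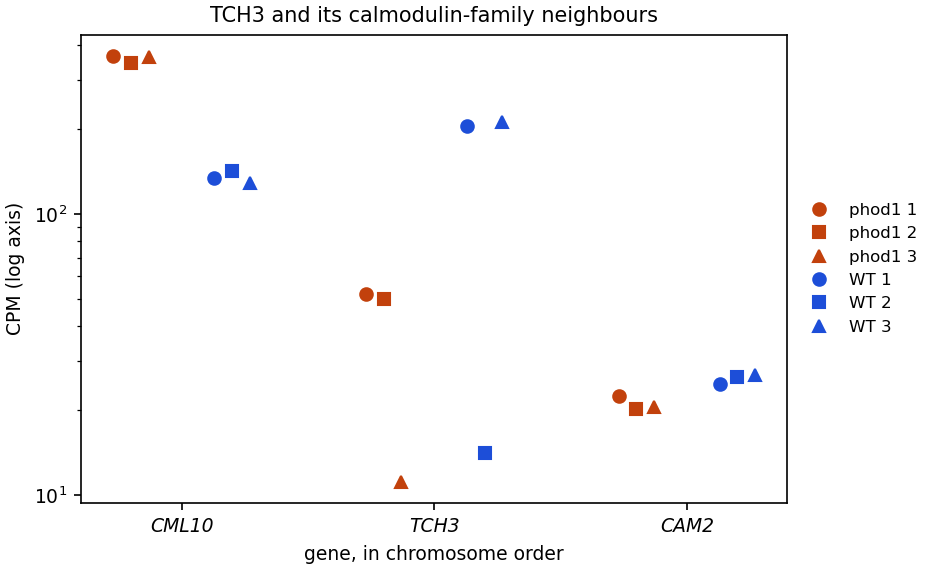
CPM (log axis) of CML10, TCH3 and CAM2 in chromosome order, in the 3 phod1 libraries (left, orange) and the 3 WT libraries (right, blue), with 1 symbol per replicate number. CML10 lies at 343 to 364.7 CPM in phod1 and 129 to 142 CPM in WT, the opposite order to the libraries of TCH3 other than phod1 3 and WT 2.

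CML37 (AT5G42380, chromosome 5) encodes a calmodulin-like protein of wound and herbivore responses. It was near the limit of detection, at 0.183, 0.206 and 0.134 CPM in phod1, against 1.45, 1.13 and 0.966 CPM in WT. All 3 phod1 libraries were under the floor of 3 fragments and all 3 WT libraries were above it. The phod1 libraries together held 5.0 fragments and the WT libraries 31.5, so that WT stood 6.70-fold higher with a 95% exact counting interval of 2.63 to 22.4. The call (adjusted p = 0.00451 by edgeR) rests on those few fragments, and CML37 did not pass the filter when the units were divided by 4.

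CML38 (AT1G76650, chromosome 1), a calmodulin-like gene of the wounding and low-oxygen responses, was 9.73-fold lower in phod1 by its mean. It stood at 2.14, 1.31 and 4.06 CPM in phod1, against 24.9, 25.8 and 22.5 CPM in WT. The WT libraries lay close together, and all phod1 libraries lay far below them with more spread. Its log2 fold change of -3.28 (SE 0.427, adjusted p = 0.00373 by edgeR) was the most negative among the 10 members. The calmodulin-like gene AT1G76640 next to it held 1 unit in WT 3 and was at 0 in the other libraries.

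TCH4 (AT5G57560, chromosome 5), also known as XTH22, encodes a xyloglucan endotransglucosylase/hydrolase that modifies the cell wall. It stood at 39.6, 37.9 and 31.8 CPM in phod1, against 155, 166 and 0.838 CPM in WT. WT 3 held 26 units of it, while the other WT libraries held 4607 and 7765, so that 2 WT libraries lay above phod1 and WT 3 below. Its log2 fold change of -1.56 did not pass (SE 1.41, adjusted p = 0.476 by edgeR; exact permutation p = 0.4), and limma-voom, which gave 0.22 (adjusted p = 0.948), turned its sign. Without WT 3 the means were 36.4 ± 4.06 CPM in phod1 (SD, n = 3) and 160.4 ± 7.52 CPM in WT (SD, n = 2), 4.40-fold lower in phod1. That edgeR fit put its log2 fold change at -2.14 (SE 0.128, adjusted p = 0.00175) and called 10.7% of all genes tested lower. WT 3 was left out because TCH4 was low in it, so the SE and p of TCH4 there leave out that spread. The neighbouring XTH25 held 4 to 6 units in every library, and the cause of the low value in WT 3 was not tested.

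The C2H2 zinc finger genes fell together. ZAT10 (AT1G27730, chromosome 1), also known as STZ, encodes a transcriptional repressor of the responses to salt, drought and light stress. It stood at 40.1, 40.05 and 39.8 CPM in phod1, against 81.05, 77.2 and 91.2 CPM in WT. The phod1 libraries were nearly identical and lay 2.08-fold below the WT mean (log2 fold change -1.06, SE 0.0934, adjusted p = 0.00103 by edgeR). ZAT12 (AT5G59820, chromosome 5), a related gene of the responses to oxidative stress and high light, stood at 11.3, 9.14 and 8.71 CPM in phod1, against 21.1, 23.3 and 19.5 CPM in WT. It was 2.19-fold lower by its mean (log2 fold change -1.13, SE 0.143, adjusted p = 0.00348 by edgeR). The log2 ratio of ZAT10 to ZAT12 within a library averaged 2.05 ± 0.19 in phod1 and 1.97 ± 0.25 in WT (SD, n = 3 each). The difference of 0.08 was smaller than that spread (exact permutation p = 0.7, adjusted p = 0.933 over 4 pairs of related members).

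SZF1 and SZF2 encode tandem CCCH zinc finger proteins, a class known to act on mRNA, and are induced by salt and by microbial elicitors. SZF1 (AT3G55980, chromosome 3) stood at 39.8, 43.2 and 45.4 CPM in phod1, against 292, 285 and 287 CPM in WT. It was 6.74-fold lower in phod1, far beyond the spread within either genotype (log2 fold change -2.75, SE 0.0815, adjusted p = 7.7e-05 by edgeR). SZF2 (AT2G40140, chromosome 2), listed in RefSeq as CZF1, stood at 49.6, 47.0 and 2.59 CPM in phod1, against 164, 156 and 151 CPM in WT. The groups did not overlap, but phod1 3 lay 18.6-fold below the mean of the other phod1 libraries. The log2 fold change of -2.25 did not pass (SE 0.964, adjusted p = 0.145 by edgeR).

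Without phod1 3, SZF2 averaged 48.3 ± 1.81 CPM in phod1 (SD, n = 2) and 157 ± 6.28 CPM in WT (SD, n = 3), 3.25-fold lower in phod1. It then fell by 1.70 on the log2 scale (SE 0.0924, adjusted p = 0.0017 by edgeR), in a fit that called 9.69% of all genes tested lower. The library phod1 3 was left out because SZF2 was low in it, so the SE and p of SZF2 there leave out that spread. TBL28, the neighbour of SZF2, held 19.5 CPM in phod1 3, within 1 CPM of the other phod1 libraries at 19.8 and 20.2 CPM. The log2 ratio of SZF1 to SZF2 was -0.32, -0.12 and 4.13 in phod1, against 0.84, 0.87 and 0.93 in WT. With all libraries the ratio differed by 0.35 (exact permutation p = 1.0), whereas without phod1 3 it was lower in phod1 by -1.10 (exact permutation p = 0.1, the smallest that 2 against 3 allow). Per kb of exon, SZF1 lay below SZF2 in phod1 1 (17.0 against 20.1 CPM per kb) and phod1 2 (18.5 against 19.1), and above it in each WT library (122 to 125 against 61.4 to 66.5 CPM per kb).

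MKK9 (AT1G73500, chromosome 1) encodes a MAP kinase kinase known to activate MPK3 and MPK6. It stood at 74.3, 74.1 and 77.0 CPM in phod1, against 94.4, 78.5 and 80.04 CPM in WT. The groups did not overlap, but the highest phod1 library and the lowest WT library differed by less than the spread within WT. That phod1 lay below WT rests on the TMM scaling. MKK9 held 2844, 2877 and 2880 units in phod1, against 2804, 3679 and 2485 units in WT. The log2 fold change of -0.17 did not pass (SE 0.0986, adjusted p = 0.274 by edgeR), and it passed under none of the alternatives tried.

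**Figure D3:**
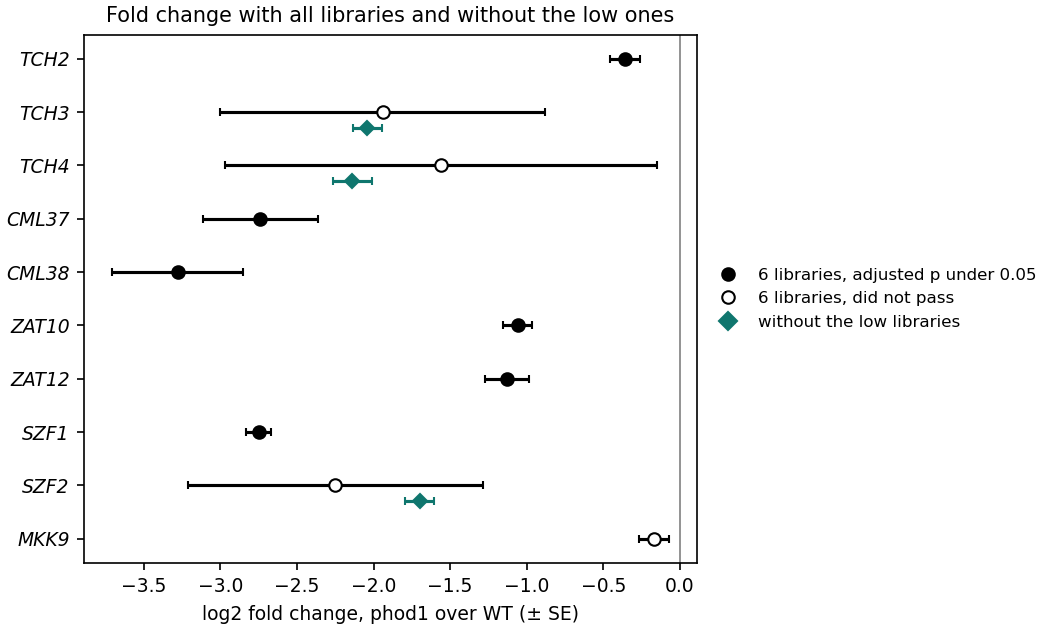
Log2 fold change of phod1 over WT with its SE for each member by edgeR, with all 6 libraries (circles, filled where the adjusted p was under 0.05) and, without the low libraries (diamonds), which are WT 2 and phod1 3 for TCH3, WT 3 for TCH4 and phod1 3 for SZF2. The values run from -3.28 for CML38 to -0.17 for MKK9, and the error bars of TCH3, TCH4 and SZF2 shrink when those libraries are left out.

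Set against exon length (CPM per kb of annotated exon), the order of the members differed between the genotypes. In phod1, MKK9 (48.4 ± 1.04 CPM per kb) and TCH2 (45.4 ± 1.73) came first and second, followed by ZAT10 at 30.7 ± 0.146, TCH4 at 22.9 ± 2.55 and SZF1 at 18.3 ± 1.19 CPM per kb (SD, n = 3 each). The place of SZF1 before TCH3 and SZF2 rests on phod1 3. In phod1 1 and phod1 2, TCH3 (20.3 and 19.5 CPM per kb) and SZF2 (20.1 and 19.1) lay above SZF1 (17.0 and 18.5). In WT, SZF1 was highest at 123 ± 1.52 CPM per kb. Of the other members in which no WT library stood apart, SZF2 (63.8 ± 2.55), ZAT10 (63.8 ± 5.56), TCH2 (58.4 ± 5.67) and MKK9 (54.3 ± 5.64 CPM per kb) followed without differing from their neighbours in this order beyond their SDs. TCH4 reached 97.5 and 104 CPM per kb in WT 1 and WT 2, and TCH3 80.4 and 83.5 CPM per kb in WT 1 and WT 3. At the low end, CML38 and ZAT12 stood at 2.52 ± 1.42 and 9.90 ± 1.40 CPM per kb in phod1 and at 24.6 ± 1.69 and 21.7 ± 1.97 CPM per kb in WT, and CML37 was lowest in both genotypes.

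By their median, the members stayed near their genotype mean in each library. The median deviation of the 10 members from their genotype mean, on the log2 scale, was 0.03, 0.03 and -0.08 in phod1 1 to 3 and 0.05, -0.01 and -0.06 in WT 1 to 3. The deviation was positive in 6, 7 and 4 members in phod1 1 to 3 and in 7, 4 and 3 members in WT 1 to 3. TCH3 (-1.45) and SZF2 (-2.78) were both low in phod1 3. The 7 members in which no library stood apart summed to 255.4, 262 and 267 CPM in phod1, against 620, 612 and 628 CPM in WT. The genes most like the members in pattern, by Pearson's r over the 6 libraries with the members' mean standardized level, were AT2G07170 (r = 0.9985), INV-E (0.9972), VIK (0.9970), CIPK5 (0.9968) and AT5G10540 (0.9961). These r values describe 6 libraries that fall into 2 genotypes. The genes were picked for their match to the members in these libraries, so their changes are no independent support. The log2 fold changes were -0.62 for AT2G07170, -0.30 for AT5G10540 and -0.26 for VIK, which did not pass (adjusted p = 0.061 by edgeR). Among these genes CIPK5, which encodes a kinase regulated by calcineurin B-like calcium sensors, stood at 28.3, 27.4 and 24.1 CPM in phod1, against 64.3, 57.5 and 57.7 CPM in WT (log2 fold change -1.17, adjusted p = 0.00114 by edgeR), and INV-E, an invertase gene, at 103 to 116.5 CPM in phod1 and 175.5 to 204 CPM in WT (log2 fold change -0.76).

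Of 15 tested genes in a list of other early touch and wound genes, which leaves out the members, 8 fell and 3 rose. That is 53.3% lower, beside 13.0% of all genes tested, and 20.0% higher, beside 14.6%. The other 4 did not pass, and the median log2 fold change of the list was -1.11. The list was chosen with earlier results of these data known, so these shares are a description and no independent support. The transcription factor gene ERF6 stood at 10.5 ± 1.16 CPM in phod1 and 88.5 ± 1.58 CPM in WT (SD, n = 3 each), which is -3.07 on the log2 scale (SE 0.117, adjusted p = 1.2e-04 by edgeR). ERF5, its close relative, stood at 11.2 ± 0.764 CPM in phod1 and 55.6 ± 1.34 CPM in WT, and ERF13 at 1.64 ± 0.140 CPM in phod1 and 14.7 ± 1.84 CPM in WT. WRKY33, a WRKY factor gene of defence, fell by 1.80 on the log2 scale. The 3 genes that rose were SIB1 (log2 fold change 0.81), which encodes a sigma factor binding protein, the transcription factor gene MYB15 (3.14) and the deadenylase gene CAF1b (0.82). MYB15 stood at 2.04 to 2.51 CPM in phod1 and at 0.0854 to 0.404 CPM in WT, about the floor or under it. CAF1a, the closest relative of CAF1b, fell by 0.99, with 91.9 ± 3.95 CPM in phod1 and 182 ± 23.8 CPM in WT.

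The relatives of the members within their own families went both ways. Of 22 tested other CML genes, 12 did not pass, 7 rose (31.8%, beside 14.6% of all genes tested) and 3 fell (13.6%, beside 13.0%). The median log2 fold change of the 22 genes was 0.18. CML10 had the smallest p among them, and CML16 (18.3 ± 1.28 CPM in phod1 and 35.5 ± 1.79 CPM in WT) and CML23 (9.72 ± 0.358 CPM in phod1 and 18.4 ± 2.41 CPM in WT) fell by 0.96 and 0.92 on the log2 scale. The third that fell was the locus AT1G21550, with 2.15 ± 0.361 CPM in phod1 and 5.40 ± 1.15 CPM in WT (log2 fold change -1.33, SE 0.234, adjusted p = 0.0103 by edgeR). CML23 is the closest relative of TCH2, and its log2 fold change was further from 0 than that of TCH2, a difference that was not tested. The locus AT1G73630 rose by 0.93. Of the others that rose, CML43 stood at 0.314 to 0.412 CPM in phod1, about the floor, and at 0 in every WT library. CML11 stood at 1.36 to 1.75 CPM in phod1 and at 0.258 to 0.747 CPM in WT, under the floor in WT 1 and WT 3. None of the 7 calmodulin genes passed (27.7% of all genes tested did), with log2 fold changes from -4.01 to 0.36. The most negative was CAM1 (SE 2.09), which held 114 CPM in WT 3, 0.747 to 1.08 CPM in the other WT libraries and 0.784 to 4.95 CPM in phod1. CAM7 stood at 2.83 CPM in phod1 2, against 87.6 and 105.9 CPM in phod1 1 and phod1 3 (SE 1.08). A change in CAM1 or CAM7 could therefore be missed.

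Of 21 tested other XTH genes, 3 fell (14.3%, beside 13.0% of all genes tested), 1 rose (4.76%, beside 14.6%) and 17 did not pass. XTH31 rose to 224 ± 21.3 CPM in phod1, against 64.2 ± 14.0 CPM in WT (log2 fold change 1.80, SE 0.185, adjusted p = 0.00174 by edgeR). XTH27 and XTH30 fell by 0.79 and 0.87 on the log2 scale, and XTH18 stood at 0.107 to 0.361 CPM in phod1, about the floor, and at 2.38 to 2.69 CPM in WT. Among 10 tested relatives of ZAT10 and ZAT12, 3 fell, 1 rose and 6 did not pass. AZF2 stood at 4.10, 5.10 and 3.96 CPM in phod1, against 15.4, 15.4 and 17.2 CPM in WT (log2 fold change -1.87, SE 0.149, adjusted p = 7.5e-04 by edgeR). ZAT6 fell by 0.60, ZAT7 stood at 0, 0.206 and 0.321 CPM in phod1 and at 1.61 to 4.01 CPM in WT, and AZF3 rose by 0.49 (adjusted p = 0.0498).

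**Figure D4:**
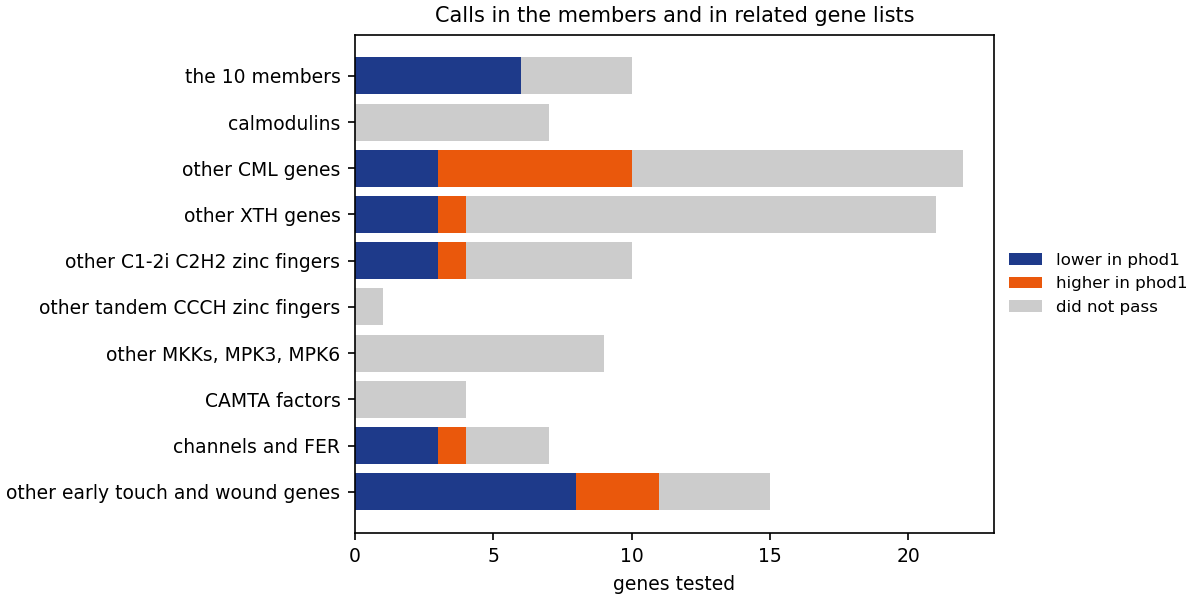
Number of genes tested (horizontal axis) in the members and in each related list, split into those called lower in phod1 (blue), called higher in phod1 (orange) and not passing (grey), by edgeR at an adjusted p under 0.05. The members have 6 lower and 4 not passing, the other early touch and wound genes 8 lower and 3 higher, and the calmodulins, CAMTA factors and kinases no call. Over all genes tested, 13.0% were called lower and 14.6% higher.

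Among genes that act upstream of the early response, 3 of 7 channels and receptors fell, 1 rose and 3 did not pass. That is 42.9% lower, beside 13.0% of all genes tested, and 14.3% higher, beside 14.6%. FER, the receptor kinase gene FERONIA, stood at 377 ± 3.07 CPM in phod1 and 450.2 ± 5.62 CPM in WT (log2 fold change -0.26, SE 0.0568, adjusted p = 0.0219 by edgeR). This fall is smaller than the difference in TMM factors and rests on that scaling. The calcium channel genes OSCA1, whose product is gated by osmotic stress, and MCA2, of mechanosensing, fell by 0.66 and 0.87 on the log2 scale. MSL10, of a mechanosensitive anion channel, rose to 44.9 ± 4.21 CPM in phod1, against 30.1 ± 2.73 CPM in WT (log2 fold change 0.58, SE 0.119, adjusted p = 0.0175). None of 4 tested CAMTA factor genes passed, with log2 fold changes from -0.23 to -0.04. None of 9 tested genes for other MAP kinase kinases, MPK3 and MPK6 passed, while 27.7% of all genes tested did. MPK3 stood at 1.60 CPM in WT 2, against 126 and 125 CPM in WT 1 and WT 3 (SE 1.23). MKK6 was at 0 in WT 1, against 3.31 and 2.16 CPM in WT 2 and WT 3 (SE 1.13), so a change in either could be missed. Of the tandem CCCH genes other than SZF1 and SZF2 only TZF1 was tested. It did not pass and, like TCH3, was low in WT 2.

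The authors' deposited table of phod1 against WT holds genes under an adjusted p of 0.05. It lists 3902 of the 21693 genes of the count table, in either direction, and 7 of the 10 members, all lower in phod1. TCH3, TCH4 and MKK9 are not in it. For SZF2 the authors' deposited table gives a log2 fold change of -2.25 with an adjusted p of 0.0288, whereas edgeR did not call it. For TCH2 the authors' deposited table gives -0.37 with an adjusted p of 0.00874.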

How the data were processed

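RNA from shoots of 3 phod1 and 3 WT samples was sequenced. The authors deposited estimated counts per gene (expected counts, whole numbers, not normalized), and CASAVA 1.4, STAR, StringTie and TAIR10 stand, without roles, in the submitters' processing notes. The value 4 was seen 1703 times against 562 for 3 and 832 for 5, so 1 fragment was taken as 4 units, a scale read from the values. The authors also deposited a comparison of phod1 with WT with, per the file headers, a log2 fold change, its error, the test score, p-values and a mean normalized signal. DESeq2 on every gene with a count called 3905 genes, which include all 3902 of that table.

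Counts were rounded, filtered with filterByExpr (minimum count 10, minimum total 15), TMM-scaled and put through edgeR 4.0.16 in R 4.3.3 (glmQLFit, glmQLFTest, genotype only, two-sided). The analysis plan allowed for estimated counts and its test was kept. CPM errors are SDs over libraries, and log2 levels carry a pseudocount of 0.1 CPM. Alternatives used DESeq2 1.42.0, limma 3.58.1 (voom), other scalings, no filter, a replicate block, units divided by 4 and libraries left out. The fits were tested on simulated counts.

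Members and lists were chosen with earlier results of these data known. Named genes are all members, their neighbours, the called genes of each list with the smallest p and the 5 genes most like the members among those with a mean of at least 5 CPM. Some small counts were also named in full, and CAF1a, CML11, CML43, MPK3 and MKK6 were chosen after their values were seen. Promoters are the 250 bases before each gene start of 27443 protein-coding nuclear genes in TAIR10.1, and its coordinates are those of that build, since the deposited tables hold none. Gene names come from the deposited tables and RefSeq. Listed genes with no row in the table were not analysed here.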

Additional observations from a re-analysis of the deposited data

How the results depend on the processing

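Over 14 alternatives to the edgeR test, 5 to 7 of the 10 members were called, all lower. Of all genes tested, edgeR called 13.0% lower with all libraries, 10.7% without WT 3 and 9.69% without phod1 3. Without WT 2 and phod1 3 together it called 5.09% lower, and this share is not given for the other alternatives. The log2 fold changes of CML38, ZAT10 and SZF1 passed under all 14 and that of MKK9 under none. The call of ZAT12 was lost without WT 2 and phod1 3 together (adjusted p = 0.0515), which leaves 2 libraries a genotype and was chosen after seeing the data, and under no other alternative. CML37 was not called in that fit either (0.0629), and it was not tested with units divided by 4. TCH4 turned to 0.22 with limma-voom; the cause was not tested. Of 96 tested genes in the related lists, 33 were called with all libraries. Of these, 20 were lower (20.8%, beside 13.0% of all genes tested) and 13 higher (13.5%, beside 14.6%). DESeq2 called 42 of 114 (26 lower, 16 higher), and the replicate block 20 of 96 (15 lower, 5 higher). Without WT 2 and phod1 3, 18 of 97 were called (11 lower, 7 higher). Without any one library 24 to 30 of 96 to 100 were called, with 15 to 21 lower and 8 to 10 higher. The fewest higher calls, 8, came without phod1 1.

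With the replicate block, 5 members were called, and TCH2 (adjusted p = 0.0948) lost its call. Deviations of same-numbered libraries correlated at -0.00595, -0.0508 and 0.00739. Differently numbered libraries were not compared in this way, so the check cannot tell whether the numbers mark a shared batch. The difference of the ratio of ZAT10 to ZAT12 turned to -0.02 with a prior of 2 CPM and ran from -0.04 (without WT 2) to 0.21 without any one library, and it was -0.11 without WT 2 and phod1 3. That of SZF1 to SZF2 ran from -1.10 (without phod1 3) to 1.13. TCH2 also lost its call with no filter (adjusted p = 0.0588). Depth limits CML37 most, since its phod1 libraries hold 5.0 fragments in all.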
